A study of Caenorhabditis elegans with 21 samples.

Results

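The daf-16 alleles mg54 and mu86 were compared directly in daf-2(e1370) animals of Caenorhabditis elegans, through poly(A) RNA counted in whole day 1 adults. The comparison uses 6 of the 21 libraries of the series, 3 labelled daf-16(mg54);daf-2(e1370) and 3 labelled daf-16(mu86);daf-2(e1370), chosen by genotype label alone. The series design describes mu86 as a null mutation and mg54 as a mutation of the a and f isoforms. The 2 genotypes therefore share the daf-2(e1370) mutation and the loss of DAF-16a and DAF-16f, and the comparison addresses what other products of daf-16 add at this age. The other genotypes measured, 3 libraries each, were N2 wild-type, daf-2(e1370) with an intact daf-16, and daf-2(e1370) with tm5030, tm5032 (both daf-16a mutations) or tm6659 (a daf-16f mutation). Worms from an egg-lay of 4 hours were raised at 15 °C up to the L4 stage, moved to 20 °C and collected 20 to 24 hours later, and plates on which males appeared were not used. Each genotype is 1 strain, and the labels do not say that the libraries of a genotype came from cultures grown apart, so p-values measure the spread between these libraries, which may be technical.

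DAF-2 is the worm's insulin/IGF-1-like receptor, and DAF-16 is the FoxO transcription factor that it restrains. When DAF-2 signalling is low, DAF-16 gathers in nuclei, raises genes of stress defence, fat and carbohydrate metabolism and immunity, and lengthens life, while other genes fall. The daf-16 gene is transcribed from several promoters into isoforms that differ at their amino termini. The a and f isoforms are known for their part in lifespan, and the b isoform for a part in dauer formation and in the shape of certain neurons. The mg54 allele is known as a nonsense mutation in an exon used by a and f but not by b, and mu86 as a large deletion that reaches every isoform. RNA from a whole animal does not tell fewer cells of a type from less RNA per cell.

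Between mg54 and mu86, 4 of 12091 genes changed (edgeR quasi-likelihood test, Benjamini-Hochberg adjusted p under 0.05), which is 0.0331% of the genes tested. H22K11.2 was the 1 gene higher in mg54 (0.00827%), and haf-6, Y49G5A.1 and daf-16 itself were the 3 lower in mg54 (0.0248%). In the same model 1130 genes (9.35%) changed between mg54 and daf-2, and 1244 genes (10.3%) changed between mu86 and daf-2. The median absolute log2 change over all genes was 0.08 between mg54 and mu86, 0.22 between mg54 and daf-2 and 0.23 between mu86 and daf-2. The latter comparisons use the same daf-2 libraries. An unadjusted p under 0.05 was found for 136 genes, 1.12% of those tested. This is below the share of 0.05 that would pass if no gene differed. The test was thus cautious here, and few calls do not show that the genotypes are alike. With the replicate number as a term in the model, 286 genes had such a p. DESeq2 called 10 genes and limma-voom 6 from the same counts, and edgeR with the replicate number as a term called 10.

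**Figure D1:**
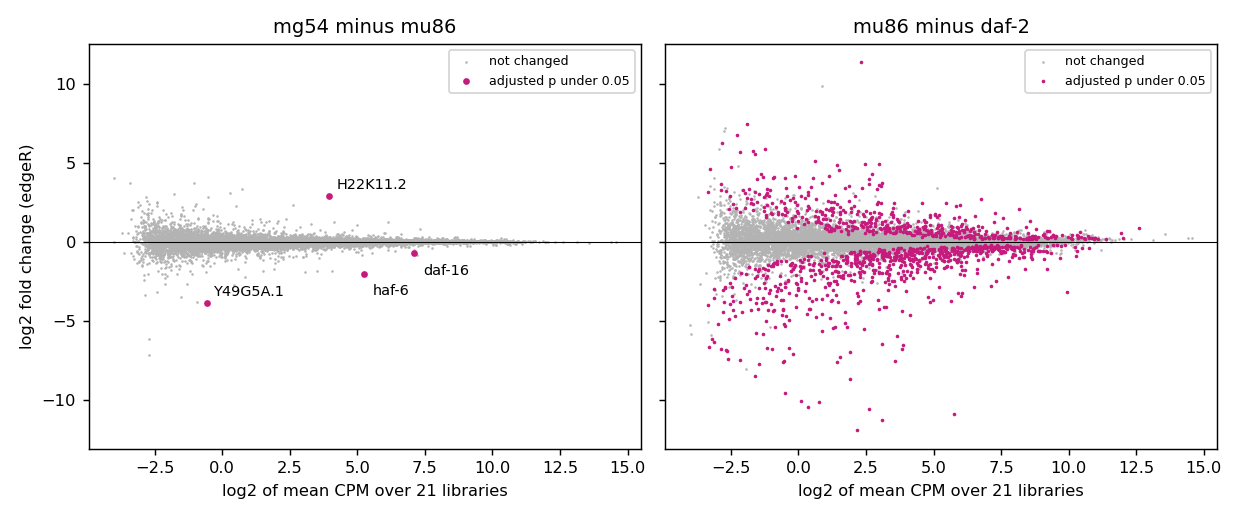
Each point is 1 of 12091 genes, placed by the log2 of its mean CPM (fragment counts scaled to library size) over the 21 libraries and by its edgeR log2 fold change, for mg54 minus mu86 (left) and mu86 minus daf-2 (right), with genes at an adjusted p under 0.05 in magenta. On the left 4 genes are magenta and named, and on the right 1244 are.

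H22K11.2 (named bgal-2 in Ensembl release 115, chromosome X, 6784411 to 6787305 in WBcel235, plus strand) held 16.7, 16.6 and 18.1 CPM (fragment counts scaled to library size) in the mg54 libraries and 2.17, 2.66 and 2.2 CPM in the mu86 libraries. The lowest mg54 library was far above the highest mu86 library. The log2 difference was 2.87 ± 0.12 (standard error, SE), a 7.31-fold higher level in mg54 (edgeR adjusted p = 2.46e-10). The mg54 level was close to the 20.2 ± 2.24 CPM of daf-2 (SD, n = 3, as for all such CPM values), with a log2 difference of -0.24 ± 0.11 (adjusted p = 0.225). H22K11.2 stood at 13.5 ± 0.774 CPM in N2, 18.3 ± 0.713 in tm5030, 19.2 ± 0.97 in tm5032 and 18.6 ± 0.473 in tm6659. The mu86 libraries were lower than each of these 4 genotypes and than daf-2, with log2 differences from -2.52 to -3.11 and adjusted p of at most 1.59e-09. The low level of this gene was thus found in the 3 mu86 libraries and in none of the other 18, of which 12 carry another daf-16 mutation. Each genotype is 1 strain, so the allele and other differences between strains cannot be told apart. Over all genes, 1.52% changed between mu86 and N2, 3.08% between mu86 and tm5030, 3.49% between mu86 and tm5032 and 7.22% between mu86 and tm6659.

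The gene haf-6 encodes a half-molecule ABC transporter that is known to be needed for efficient RNA interference in the worm. It lies on chromosome I, from 1162880 to 1175809 (WBcel235, minus strand), on the same chromosome as daf-16. Its level was 10.9, 11 and 9.64 CPM in mg54 and 41.1, 41.4 and 45 CPM in mu86. The groups did not overlap, and mg54 was 4.04-fold lower (log2 -2.01 ± 0.12 SE, adjusted p = 5.39e-08). The haf-6 level was 43.1 ± 0.565 CPM in daf-2 and 43.9 ± 2.45 in N2, and its means in tm5030, tm5032 and tm6659 were 42, 43.9 and 37.2 CPM. In mg54 it was lower than in each of these 5 genotypes, by log2 differences of -1.82 to -2.06 (adjusted p of at most 9.44e-08). Over all genes, 0.984% changed between mg54 and N2, 2.39% between mg54 and tm5030, 2.92% between mg54 and tm5032 and 6.54% between mg54 and tm6659. Against daf-2, mu86 differed by -0.02 ± 0.12 (adjusted p = 0.974). Thus haf-6 was low in the 3 mg54 libraries and in none of the other 18, and H22K11.2 in the mu86 libraries alone. For haf-6 too, the allele and other differences between strains cannot be told apart.

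Y49G5A.1 (chromosome V, 5286343 to 5287373 in WBcel235, minus strand) is a weakly expressed gene, and no role is given for it here. It had 3, 4 and 2 fragments in the mg54 libraries (0.0952, 0.136 and 0.0557 CPM) and 81, 37 and 42 fragments in the mu86 libraries (2.04, 0.966 and 1.38 CPM). All mu86 libraries were above all mg54 libraries, and the log2 difference of mg54 was -3.91 ± 0.59 SE (adjusted p = 0.0176). With so few fragments in mg54, the size of this fall is less certain than its direction. The 7 genotypes fell on both sides. N2, tm5030 and tm5032 held 0.211 ± 0.183, 0.154 ± 0.0334 and 0.223 ± 0.137 CPM, near mg54, while daf-2 and tm6659 held 1.66 ± 0.188 and 0.958 ± 0.104 CPM, nearer mu86. The mu86 libraries differed from N2 (2.76 ± 0.53, adjusted p = 0.0156), tm5030 (3.22 ± 0.55, adjusted p = 0.00241) and tm5032 (2.72 ± 0.53, adjusted p = 0.00621), and the mg54 libraries differed from daf-2 (-4.09 ± 0.59, adjusted p = 0.000208) and tm6659 (-3.30 ± 0.58, adjusted p = 0.00159). The call between mg54 and mu86 was lost without any 1 of the mg54 libraries (adjusted p = 0.135, 0.0871 and 0.213) and without mu86 replicate 1 (0.0778).

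The daf-16 locus (chromosome I, 10750498 to 10776703 in WBcel235, plus strand) held 94.4, 94.3 and 94 CPM in mg54 and 145, 150 and 167 CPM in mu86. The mg54 libraries were close to each other and all below mu86, with a log2 difference of -0.71 ± 0.11 SE (adjusted p = 0.0277). Against daf-2 (163 ± 18.6 CPM), mg54 was lower (-0.79 ± 0.11, adjusted p = 0.000191), and no change was detected in mu86 (-0.08 ± 0.11, adjusted p = 0.796). The call between mg54 and mu86 rests on a small margin, since it was lost when any 1 of the 6 libraries was left out, with adjusted p from 0.0778 to 0.213, and with RLE scaling (0.0612), while the direction held. On deposited FPKM values (fragments scaled for transcript length and library) with 1 added, the log2 difference was -1.18 and not called (adjusted p = 1).

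**Figure D2:**
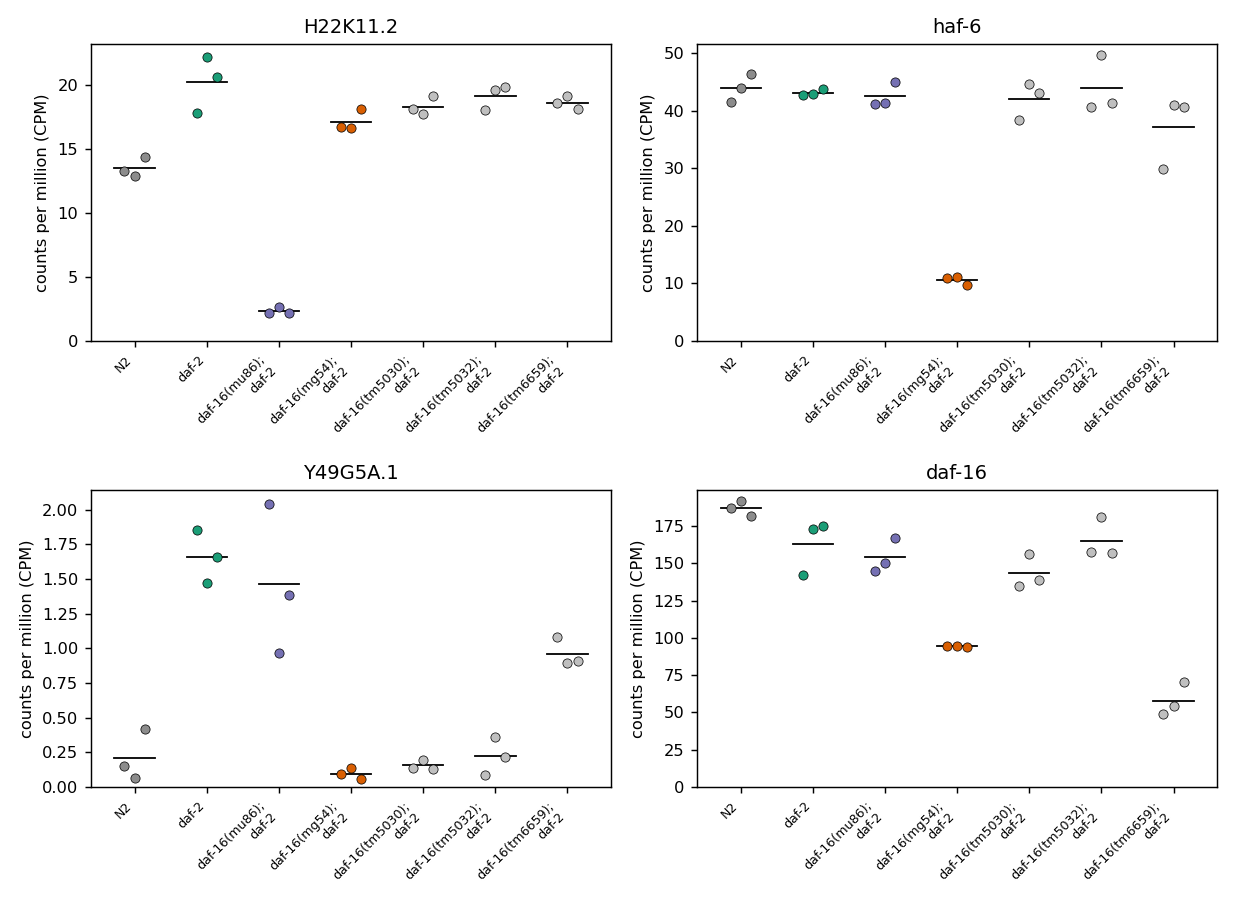
CPM of the 4 changed genes in each of the 21 libraries (points) with the mean of 3 (line), by genotype, on linear axes from 0. H22K11.2 is low in mu86 alone and haf-6 in mg54 alone, Y49G5A.1 splits the genotypes into low and high ones, and daf-16 is lower in mg54 and tm6659.

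The count of the daf-16 locus in mu86 does not by itself show a lesion, so the make-up of its transcripts was read from a second deposited value. The ratio of FPKM to count depends on the transcript length that the authors' software assigned. Taken as log2 and minus the library's median over genes, it was -0.29, -0.36 and -0.31 for daf-16 in the mu86 libraries and -0.84, -0.90 and -0.91 in the mg54 libraries. The 15 libraries of the other genotypes ran from -1.01 to -0.68, so the mu86 libraries stood apart from all 18 others. Fragments of daf-16 were thus assigned to shorter transcripts in mu86. The shift between mu86 and mg54 was 0.56, and 17 of 8545 genes (0.199%), daf-16 among them, had a shift at least as large in either direction. For H22K11.2 the same ratio was lower in mu86, from -0.95 to -0.67, than in mg54, from -0.52 to -0.36. The values for haf-6 overlapped, from -0.63 to -0.53 in mu86 and from -0.64 to -0.52 in mg54.

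**Figure D3:**
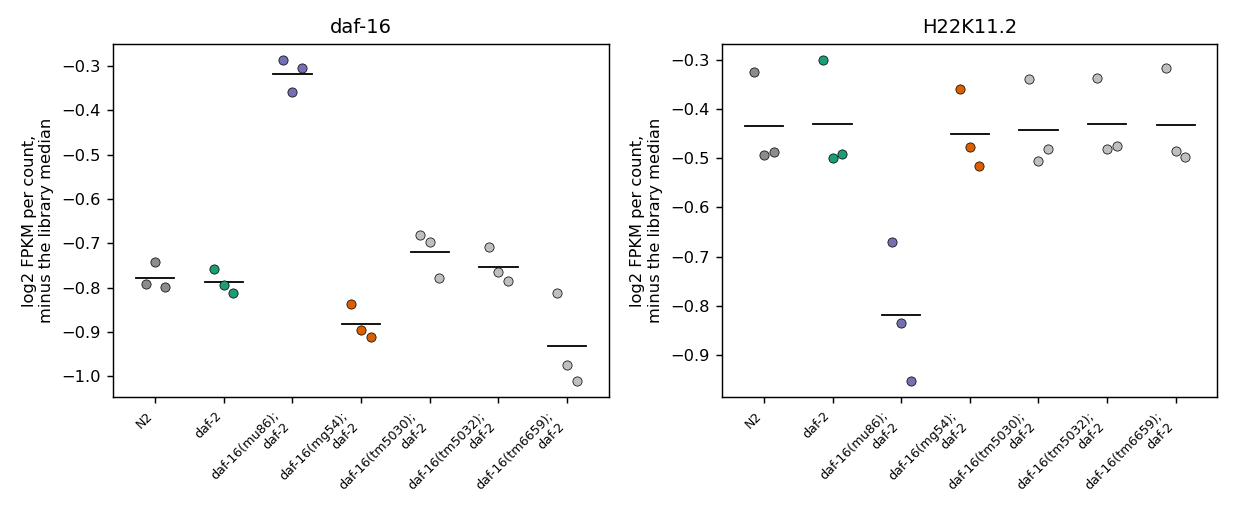
Log2 of FPKM per count, minus the library's median over genes, for daf-16 (left) and H22K11.2 (right) in the 21 libraries (points) with the mean of 3 (line); a higher value means that fragments were assigned to a shorter transcript. For both genes the 3 mu86 libraries lie outside the range of the other 18, above it for daf-16 and below it for H22K11.2.

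How closely the 2 genotypes could be compared depended on the level of a gene. The 95% interval of the mg54 to mu86 difference lay within a log2 change of 1 in either direction for 7833 genes, 64.9% of the 12077 with an interval. This held for 98.2% of the 2239 genes at a mean of 100 CPM or more, for 90.8% of those from 10 to 100 CPM, for 56.8% from 1 to 10 CPM and for 8.23% under 1 CPM. Of the 2239 genes at 100 CPM or more, 0 had an estimated difference beyond 2-fold. For most genes under 1 CPM a 2-fold difference was not excluded at this depth.

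Genes known to be raised through DAF-16 were low in both mutants. Of 21 such loci tested, 15 were lower in mg54 than in daf-2 and 1 higher, where 5.57% of all genes were lower and 3.77% higher (median log2 change -2.12, beside -0.01 for all genes), and 16 were lower in mu86 and 1 higher, where 6.16% were lower and 4.13% higher (median -2.16, beside -0.01). Between mg54 and mu86, 0 of the 21 changed by edgeR without a block, DESeq2 or limma-voom, and 1, sod-3, was higher in mg54 with the replicate number as a block in edgeR (adjusted p = 0.00506). In the fit without the block 1 had an unadjusted p under 0.05, and the median difference was 0.07 (0.01 over all genes). Of all genes 0.0331% changed in that fit and 1.12% had such a p. Its members were taken from the literature on daf-2 and daf-16, so the direction against daf-2 is not independent evidence. At lea-1, which encodes a late-embryogenesis-abundant protein of the kind tied to survival of drying, mg54 held 233, 217 and 236 CPM and mu86 210, 213 and 226, against 1880, 2110 and 1870 in daf-2. These groups overlapped, and the log2 difference between the mutants was 0.08 with a 95% interval from -0.17 to 0.33. At sip-1, which encodes a small heat shock protein, the mutants differed by 0.04 (-0.33 to 0.41) and the lipase gene lipl-4 by 0.08 (-0.43 to 0.59).

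For other genes of the list the intervals were wider. The ferritin gene ftn-1, which stores iron, held 1.05, 0.851 and 1.23 CPM in mg54 and 1.76, 0.731 and 1.35 in mu86, against 23 CPM on average in daf-2 (difference -0.29, interval -1.01 to 0.42). The glyoxylate cycle gene icl-1 differed by -0.07 (-0.85 to 0.72), and the lysozyme gene lys-7 by -0.51 (-1.02 to 0.00). At dod-3 all mg54 libraries lay below all mu86 libraries, at 2.79 to 4.13 against 4.34 to 7.46 CPM. The difference there was -0.64 (-1.46 to 0.18). The neighbouring genes F15E11.15 (pud-3) and F15E11.12 (pud-4), named for proteins abundant in daf-2 animals, differed by -0.43 (-1.12 to 0.27) and -0.50 (-1.21 to 0.22). Both stayed above N2 in the mutants. F15E11.15 held 60.8 CPM in mg54 and 81.6 in mu86 against 4.24 in N2 and 383 in daf-2. The metallothionein mtl-1 appears as a pair of loci in the deposited table, so its level is uncertain. The more abundant of these held 0.595 CPM in mg54 and 0.434 in mu86 against 41.5 in daf-2.

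The manganese superoxide dismutase gene sod-3, a mitochondrial antioxidant enzyme and a common reporter of DAF-16 activity, held 3.59, 3.61 and 4.93 CPM in mg54 and 1.21, 1.38 and 2.5 CPM in mu86. All mg54 libraries were above all mu86 libraries, but the difference did not pass in the comparison without a replicate block (log2 1.26, interval 0.44 to 2.08, adjusted p = 1). It passed with the block (adjusted p = 0.00506). Both were far below the 39.3, 34.4 and 54.9 CPM of daf-2 (mg54 -3.40 ± 0.40, adjusted p = 2.71e-05; mu86 -4.66 ± 0.43, adjusted p = 1.77e-06). In N2, sod-3 was at 2.2 ± 0.626 CPM.

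Genes known to be lowered through DAF-16 were high in both mutants. Of 10 such loci tested, 6 were higher than in daf-2 in mg54 and also 6 in mu86, and 0 were lower in either. Of all genes, 3.77% were higher and 5.57% lower in mg54, and 4.13% and 6.16% in mu86. Between mg54 and mu86 0 of 10 changed by edgeR, DESeq2 or limma-voom, and 1 had an unadjusted p under 0.05. Of all genes 0.0331% changed by edgeR and 1.12% had such a p. Of the 10 differences 9 were negative (median -0.11, beside 0.01 for all genes, of which 52.4% were positive). The gene dod-24, known to respond to infection, ranged from 8.31 to 19.1 CPM in mg54 and held 21.3, 19.2 and 35.4 in mu86, against 1.1, 0.229 and 1.14 in daf-2. The mg54 libraries lay below the mu86 libraries by a narrow gap (log2 -0.94 ± 0.42 SE, adjusted p = 1). The delta-9 desaturase gene fat-7, which makes monounsaturated fatty acids, held 173, 142 and 133 CPM in mg54 and 177, 194 and 201 in mu86, against 24.4, 28.8 and 33.4 in daf-2. Here too the groups did not overlap, by a gap smaller than the spread within each, and the difference did not pass (-0.35, interval -0.90 to 0.20, adjusted p = 1). The aspartyl protease gene Y39B6A.24 (asp-17) differed by -0.11 (-1.11 to 0.90) and dod-23 by -0.17 (-0.67 to 0.32).

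**Figure D4:**
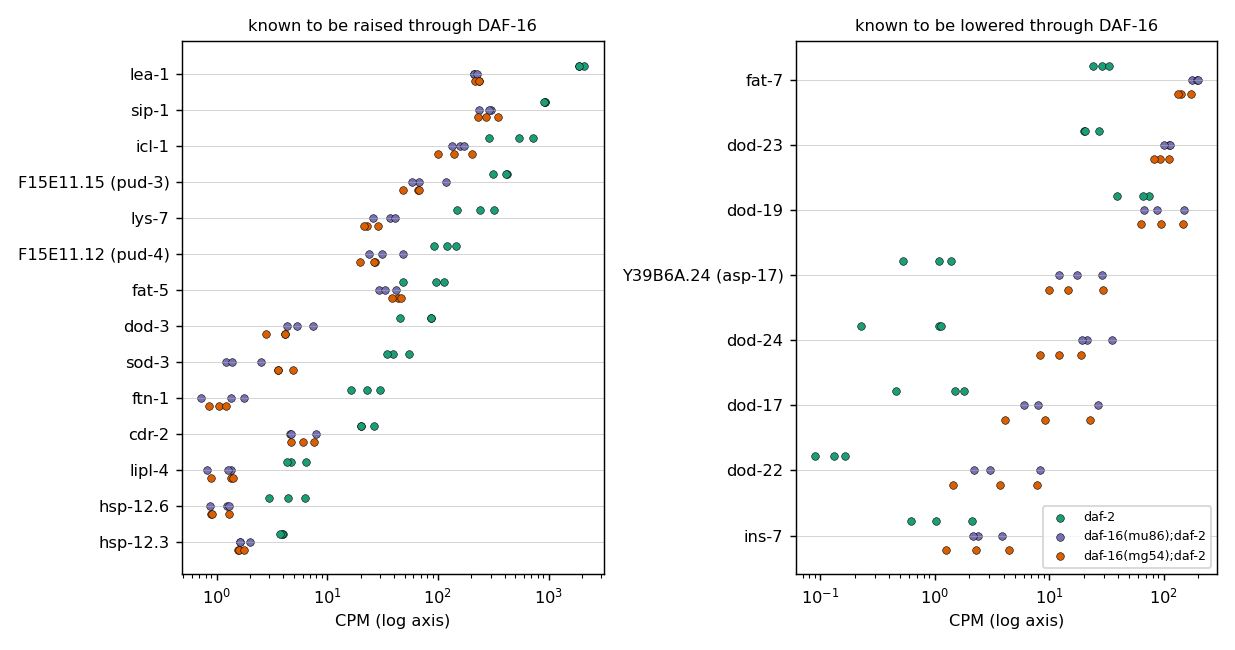
CPM on a log axis in the 3 libraries each of daf-2 (green), daf-16(mu86);daf-2 (purple) and daf-16(mg54);daf-2 (orange) for 14 genes known to be raised and 8 known to be lowered through DAF-16. Orange and purple points lie near each other and apart from most green ones. The gene sod-3 has its orange points above the purple, and dod-3, dod-24 and fat-7 have theirs below. Drawn are 14 of the 21 raised loci and 8 of the 10 lowered loci tested. Among the raised loci not drawn, dct-18 was higher in both mutants than in daf-2 (log2 1.34 in mg54 and 1.27 in mu86).

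In the insulin signalling list, 1 of 21 loci changed between mg54 and mu86, which is daf-16 itself, where 0.0331% of all genes changed. Besides genes that act between the receptor and DAF-16, the list holds daf-16 and others such as hsf-1, skn-1, pqm-1, hcf-1 and smk-1. Some of its loci, such as daf-18/eri-1, also hold another gene. The intervals of all 21 lay within a log2 change of 1. The receptor gene daf-2 ranged from 107 to 120 CPM in mg54 and from 102 to 126 in mu86, a difference of 0.00 with an interval from -0.24 to 0.25. The kinase genes akt-1 and pdk-1, which pass the signal from the receptor to DAF-16, differed by 0.09 (-0.16 to 0.35) and 0.21 (-0.09 to 0.52). Both mutants were lower than daf-2 at akt-1 (mg54 -0.63, adjusted p = 0.00252; mu86 -0.72, adjusted p = 0.000719) and at pdk-1 (mg54 -0.95, adjusted p = 0.00034; mu86 -1.17, adjusted p = 4.29e-05). Among 22 tested loci of insulin-like peptides, the ligands of the receptor, 0 changed between the mutants by edgeR, 1 had an unadjusted p under 0.05, and 3 had an interval within a log2 change of 1. Between the mutants 1.12% of all genes had such a p. Among 22 loci of the dauer, TGF-beta and steroid hormone pathways, 0 changed and 17 had an interval within a log2 change of 1. Against daf-2 these loci changed in 0 cases in mg54 and in 1 in mu86, where 9.35% and 10.3% of all genes changed. In a list of 22 loci such counts do not mark it out from all genes.

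A wider set of responsive genes was chosen by daf-2 against N2. The contrast itself holds no mg54 or mu86 library, but those libraries entered the filter, the scaling and the estimate of the spread in the shared model. A model of the daf-2 and N2 libraries alone called 2232 genes, beside the 2018 used here. In the shared model 1312 genes were higher (10.9% of those tested) and 706 lower (5.84%) in daf-2. Of the 1312 raised genes, H22K11.2 and Y49G5A.1 changed between mg54 and mu86, the first higher and the second lower in mg54. Over all genes 0.0331% changed. Of the raised genes 50 (3.81%) had an unadjusted p under 0.05, beside 1.12% of all genes. DESeq2 called 4 of them, limma-voom 2 and the edgeR fit with a replicate block 5. For 909 of the 1312 the interval lay within a log2 change of 1, and the median difference was 0.02. Of the 706 lowered genes 0 changed by edgeR, while 9 had an unadjusted p under 0.05 and DESeq2 called 3, limma-voom 1 and the edgeR fit with a replicate block 2. For 620 of the 706 the interval lay within a log2 change of 1, and the median difference was -0.01. The mean log2 CPM of the raised genes was 2.44 ± 0.20 in mg54 and 2.44 ± 0.14 in mu86 (SD, n = 3), between 1.97 ± 0.18 in N2 and 3.54 ± 0.12 in daf-2. The mean of the lowered genes was 6.35 ± 0.08 in mg54 and 6.39 ± 0.02 in mu86, between 5.80 ± 0.02 in daf-2 and 6.49 ± 0.02 in N2. The levels of daf-2 and N2 follow from the choice of the genes. The libraries of mg54 and mu86 overlapped in both sets.

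**Figure D5:**
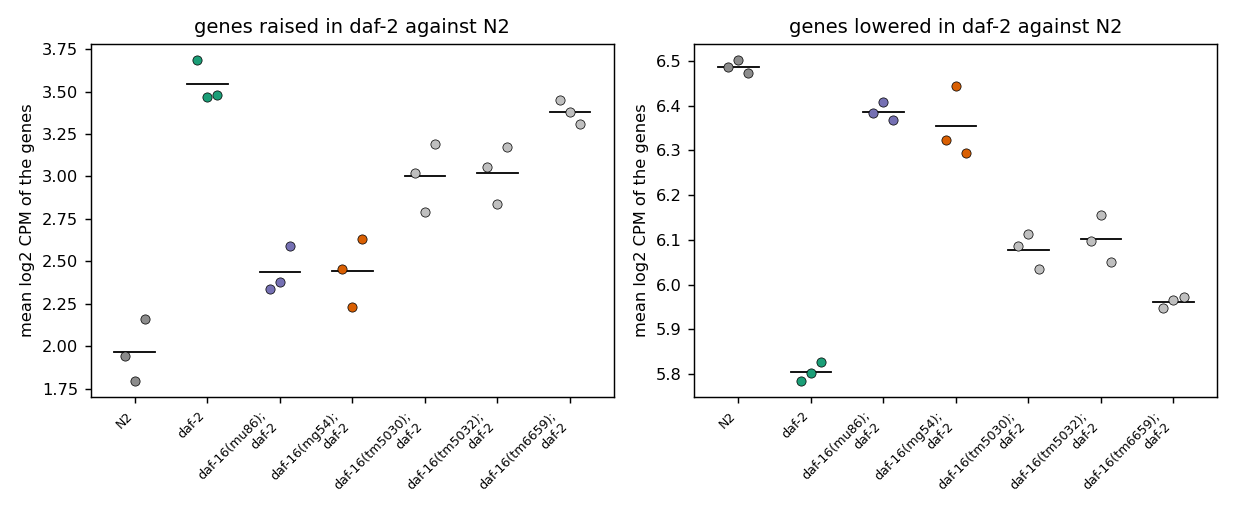
Mean log2 CPM per library (points) and per genotype (line) of the 1312 genes higher (left) and the 706 genes lower (right) in daf-2 than in N2. The mg54 and mu86 libraries overlap in both panels, from 2.23 to 2.63 and from 2.34 to 2.59 on the left.

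Among genes that were at least 2-fold lower in daf-2 than in N2, more had mg54 below mu86 than above it. Of 140 such genes, 18 had all mg54 libraries below all mu86 libraries and 4 had them above, where 1.99% and 1.52% of all genes did so. The genes at least 2-fold higher in daf-2 than in N2 had no such lean, with 33 below and 34 above of 826. Of all 706 genes lower in daf-2, 35 had all mg54 libraries below and 10 above. The 2-fold cut was not part of the planned choice of genes. The mean log2 CPM of the 140 ran from 1.01 to 1.26 in the mg54 libraries and averaged 1.22 ± 0.08 in mu86 (SD, n = 3), and the libraries overlapped. Of the 140, 0 changed by edgeR, 6 had an unadjusted p under 0.05, and DESeq2 called 2, limma-voom 1 and the replicate block 2. The collagen gene col-135 is among the 18, at 12.8, 5.58 and 8.19 CPM in mg54 and 40.7, 34.3 and 22.8 CPM in mu86, as are dod-24 and fat-7. In mg54, col-135 was near its daf-2 level of 8.62 ± 2.58 CPM, and in mu86 nearer the 36.9 to 58.5 CPM of N2. The difference between the mutants was -1.88 ± 0.35 SE (adjusted p = 0.124). It is named after its values were seen.

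A replicate block, with the replicate number as a term in the model, raised the number of changed genes from 4 to 10 (0.0827% of those tested), 4 higher and 6 lower in mg54. The 6 genes it added are named after their values were seen. They rest on a pairing of libraries by number that was weak for replicate 1. With the block, sod-3 was higher in mg54 (edgeR adjusted p = 0.00506), as were hex-1 (log2 1.19 ± 0.18 SE, adjusted p = 0.0129), a lysosomal beta-hexosaminidase gene, and Y34F4.3 (1.33, adjusted p = 0.0203). The gene col-135 was lower (-1.93 ± 0.27, adjusted p = 0.00658), as were Y48G9A.17 (-3.82, adjusted p = 0.02) and the locus T05G5.1/hlh-4 (adjusted p = 0.0261), whose genes cannot be told apart.

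The genes added by the block had mg54 levels on the daf-2 side of mu86. Of the genes called without the block, H22K11.2 also had mg54 nearer daf-2. At haf-6, Y49G5A.1 and daf-16 it was mu86 that lay nearer daf-2 (haf-6 at 42.5 CPM in mu86, 10.5 in mg54 and 43.1 in daf-2). The hex-1 level was 57.4, 72.6 and 52.6 CPM in mg54 and 24.9, 25.4 and 27.9 CPM in mu86, with 85.5, 158 and 88.2 in daf-2 and 28.3 ± 2.42 in N2. So mu86 was near N2 and mg54 between N2 and daf-2. Y34F4.3 held 2.73, 3.88 and 1.92 CPM in mg54 and 1.44, 1.04 and 0.821 in mu86, with 2.65, 3.54 and 2.17 in daf-2. T05G5.1/hlh-4 held 10.1, 7.12 and 12.5 CPM in mg54 and 23.4, 19.7 and 18.5 in mu86, with 7.83 to 13.3 in daf-2. At both of these the mg54 libraries lay within or close to the daf-2 range. Y48G9A.17, a locus with 0 protein-coding genes matched to it, stayed at or under 0.0952 CPM in mg54 and 0.164 CPM in daf-2. It ran from 0.94 to 1.64 CPM in mu86. Its means were 0.607 CPM in N2, 0.21 in tm5030, 0.686 in tm5032 and 0.818 in tm6659, where it reached 1.21. A level above that of daf-2 was thus not particular to mu86. Since these genes were chosen for a difference that the mu86 libraries take part in, their nearness to daf-2 is given as a description.

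In the lists of stress defence, detoxification and immunity, 0 loci changed between mg54 and mu86 by edgeR without the block, DESeq2 or limma-voom, and with the replicate block 1 did, sod-3 of the dismutase list. Over all genes 0.0331% changed by edgeR without the block. At an unadjusted p under 0.05 there were 4 lectins, 3 loci of the pals and intracellular pathogen response list, 2 UDP-glucuronosyltransferases and sod-3, and 0 in the other lists named here. The lists held 11 loci of superoxide dismutases, catalases and peroxiredoxins (median difference 0.07), 9 of metal handling (0.10), 10 small heat shock proteins (0.06), 24 other chaperones (-0.01), 48 cytochrome P450s (-0.01), 51 UDP-glucuronosyltransferases (0.01), 35 glutathione S-transferases (0.06), 52 lysozyme, saposin-like and antimicrobial loci (0.04) 98 C-type lectins (0.01) and 23 loci of the intracellular pathogen response (0.09). The mean log2 CPM of the dismutase list, sod-3 included, was 4.78, 4.95 and 4.93 in the mg54 libraries and 4.67, 4.68 and 4.72 in the mu86 libraries. The list mean was thus higher in mg54 in each same-numbered pair, and the groups did not overlap. Of the 11 differences 10 were positive, but they ran from -0.02 to 1.44. Only 2 loci, sod-3 among them, had all mg54 libraries above all mu86 libraries. The higher mean is therefore not shown to be shared by the list. Of the 23 pathogen response loci, 3 (13%) had an unadjusted p under 0.05, beside 1.12% of all genes, and 3 had all mg54 libraries above all mu86 libraries, beside 1.52%. Their list means overlapped, from -1.08 to -0.50 in mg54 and from -0.99 to -0.81 in mu86.

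Against daf-2, changed loci of these lists are read beside the shares of all genes, which were 3.77% higher and 5.57% lower in mg54 and 4.13% higher and 6.16% lower in mu86. The antimicrobial loci were lower in 13 and higher in 5 of 52 in mg54, with the same counts in mu86. The lectins were higher in 17 and lower in 12 of 98 in mg54 and higher in 22 and lower in 14 in mu86. The dismutase list was lower in 5 of 11 in mg54 and in 6 in mu86.

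Metabolic and housekeeping lists also held 0 changed loci between the mutants by edgeR, and 0 at an unadjusted p under 0.05. Of all genes 0.0331% changed and 1.12% had such a p. The medians were 0.04 for 29 lipase and beta-oxidation loci, 0.03 for 23 fatty acid desaturases, elongases and their regulators, 0.01 for 19 loci of the glyoxylate, trehalose and gluconeogenesis list and 0.00 for 5 vitellogenins, the yolk proteins. The yolk protein genes had intervals within a log2 change of 1 at all 5 loci, and vit-2 stood at 22800 CPM in mg54 and 23000 in mu86. Of 76 cytosolic ribosomal protein loci 75 had such an interval (median 0.00), and of 33 proteasome loci all 33 (median -0.01). Among the 166 nuclear hormone receptor loci and the 129 cuticle collagen loci 0 changed by edgeR (medians -0.02 and -0.14). At an unadjusted p under 0.05 there were 1 and 2, and limma-voom called 1 in each list. DESeq2 and the replicate block each called 1 collagen, which was col-135 (adjusted p = 6.12e-05 and 0.00658). The collagen differences were negative at 84 loci and positive at 43, where 52.4% of all genes were positive. Only 33 of the 129 intervals lay within a log2 change of 1. The mean log2 CPM of the list was 2.38 ± 0.60 in mg54 and 2.50 ± 0.67 in mu86 (SD, n = 3), and the libraries overlapped. The sign count therefore does not show a lean between the genotypes.

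Markers of tissues were looked at in the same way, by edgeR. Over all genes 0.0331% changed between mg54 and mu86, and 1.12% had an unadjusted p under 0.05. A count of 0 changed loci in a short list therefore does not mark it out. Of 25 synaptic and neuronal loci 0 changed between mg54 and mu86 (median 0.03, 13 with an interval within a log2 change of 1), and of 85 neuropeptide loci 0 changed (median 0.01, 24 with such an interval, 1 at an unadjusted p under 0.05). Of 10 pharynx loci 0 changed (median 0.11, 4 with such an interval). For most neuropeptide loci a 2-fold difference was not excluded. The intestine list had 15 of 15 intervals within that bound (median 0.05), the body wall muscle list 16 of 23 (-0.03) and the hypodermis list 6 of 12 (0.07).

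The levels of sperm and embryo markers differed between libraries within each genotype, and their part in the differences above was not tested. The mean log2 CPM of 54 sperm loci was 4.20, 3.31 and 5.36 in the mg54 libraries and 3.63, 4.44 and 5.24 in the mu86 libraries, so the genotypes overlapped and replicate 3 was highest in each. Embryo markers ran from 1.18 to 2.99 in mg54 and from 1.00 to 2.52 in mu86, with replicate 2 highest in each. Oocyte and germ line markers had means of 8.64 ± 0.21 in mg54 and 8.63 ± 0.18 in mu86 (SD, n = 3). The median difference of the sperm loci was -0.16 log2, with 4 of 54 intervals within a log2 change of 1, and 0 changed. Without the libraries numbered 2 in all genotypes the changed genes were H22K11.2 and haf-6, 2 in all, and the same pair was left without those numbered 3. The totals of the 6 libraries were 30384772 to 39960326 fragments, within the 30384772 to 47170645 of the series.

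The changed genes did not lie together. Chromosome I held daf-16 and haf-6, chromosome V Y49G5A.1 and chromosome X H22K11.2, and 0 genes changed on II, III or IV. Within 1 Mb of the daf-16 locus 246 genes were tested, of which daf-16 changed, and 3 (1.22%, beside 1.12% of all genes) had an unadjusted p under 0.05.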

How the data were processed

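RNA from whole day 1 adults was measured in 21 libraries, prepared with a poly(A) kit that does not mark strand, per the labels' protocols. The authors deposited expected counts and FPKM values per locus, with CASAVA 1.8.2, TopHat2 2.0.9 and Cufflinks 2.1.1 named in the submitters' processing notes, and the build is not given in the sources used here. Of the deposited count values 86.3% were whole (within 1e-09), and all were rounded. Loci were named from the files and Ensembl release WBcel235 annotation, which also gave positions, and 1891 of the tested loci hold more than 1 protein-coding gene. Reads of overlapping genes and near-identical copies cannot be told apart.

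Genes were tested with edgeR 4.0.16 (R 4.3.3; quasi-likelihood, TMM scaling, filterByExpr) in 1 model of genotype over all 21 libraries, with Benjamini-Hochberg adjustment over 12091 loci and 14 residual degrees of freedom. Standard errors are the log2 change divided by the root of F, and intervals are 95%. DESeq2 1.42.0, limma 3.58.1 on counts and on log2 FPKM (1 or 0.1 added), other scalings and filters, a replicate block and leaving out libraries were tried, and the code was tested on simulated data. Same-numbered mg54 and mu86 libraries deviated together from their group means (r = 0.14, 0.46 and 0.79), so the numbers were taken to pair them in the replicate block. The labels do not say what a number marks, and mu86 replicate 1 correlated more with mg54 replicate 2 (0.56). The main model leaves the number out. The block spans all 7 genotypes, and same-numbered libraries went together less well in others. For replicates 1, 2 and 3, r was -0.32, 0.21 and 0.47 between mu86 and daf-2. It was -0.09, 0.53 and 0.41 between daf-2 and N2, and 0.13, 0.64 and 0.5 between mg54 and daf-2. The named genes are daf-16, daf-2, every changed gene, and members of the DAF-16 target and insulin lists; others are marked where named. The members and lists were chosen with earlier results of these data known.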

Additional observations from a re-analysis of the deposited data

How the results depend on the processing

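H22K11.2 and haf-6 passed in 20 of 20 alternatives, with log2 differences from 2.36 to 3.17 and from -2.07 to -1.75, while Y49G5A.1 passed in 11 of 19 (it was not testable at a mean of 2 CPM or more) and daf-16 in 7 of 20, each with the same sign throughout. The count of 4 changed genes became 10 with DESeq2 (2 higher, 8 lower), 10 with the replicate block (4 higher, 6 lower) and 2 with only the 2 genotypes fitted (1 lower), and the lower genes numbered 5 with limma-voom and with FPKM plus 1. Without 1 mg54 or mu86 library, or without 1 replicate number, the total ranged from 2 to 3 and the lower genes from 1 to 2. Without 1 daf-2 or N2 library the same 4 genes were called, joined by Y48G9A.17 without daf-2 replicate 3. Against daf-2, the 1130 genes of mg54 became 708 and 734 on FPKM (1 and 0.1 added), 469 with only both genotypes fitted and 2300 with the replicate block, and from 180 (without replicate 1) to 1005 when libraries were left out. The 1244 genes of mu86 became 776, 798, 683 and 2631, and from 223 (without replicate 1) to 1115 when libraries were left out. The 2018 genes of daf-2 against N2 became 1102 and 1125 on FPKM and 5330 with the block, and from 326 (without replicate 1) to 2304 when libraries were left out, with 1237 without N2 replicate 2. Among the genes raised in daf-2, the 2 changed became 4 with DESeq2, 5 with the block, 1 at a mean of 2 CPM, on FPKM (both) and with only the 2 genotypes, and from 0 to 2 when libraries were left out. Among those lowered, 0 became 3 with DESeq2, 1 with limma-voom and on FPKM (both), 2 with the block, and from 0 to 1 (Y48G9A.17, without daf-2 replicate 3) when libraries were left out. Their median difference of -0.008 became 0.048 and 0.05 on FPKM, and from -0.054 to 0.032 when libraries were left out. The 1 changed gene near daf-16 became 0 with RLE scaling, on FPKM (both) and with only the 2 genotypes, and 0 without any library of either genotype or any replicate number. The cause of these shifts was not tested, beyond the fewer libraries in some fits. With the libraries of a number left out each genotype keeps 2. The median of all genes moved between -0.01 and 0.06. Depth limits genes under 1 CPM most.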
